A study of Mus with 2 samples.

Results

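The deep core of a CT26 tumor was compared between 1 control mouse and 1 mouse given recombinant mouse IL-7 (rIL7). The core was chosen by position alone. Spots with more than 200 detected genes in the largest connected piece of tissue were kept, step 1 was every tissue position with a neighbour off the tissue, inner holes being ignored, and the core was everything from step 12 inward. It held 1081 of the 4172 spots under tissue in the series, 575 from control and 506 from rIL7, which was 26.1% and 26.2% of each main piece. Counting inner holes as outline would leave 294 control and 478 rIL7 spots. The deepest step was 22 for control and 21 for rIL7. Both mice were balb/c, aged 6 to 8 weeks by the labels and female by the study's methods, and carried tumors grown under the skin from CT26 cells, a transplantable mouse colon carcinoma line. The rIL7 mouse received 10 µg of the cytokine into the peritoneum on day 11 and on day 13 after transplantation and the control mouse received PBS, and both tumors were taken on day 15. Each group was 1 cryosection, 10 µm thick and 1 library, so treatment, animal, section and library cannot be told apart. The comparison has no replicates, and values are set side by side without a test.

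**Figure D1:**
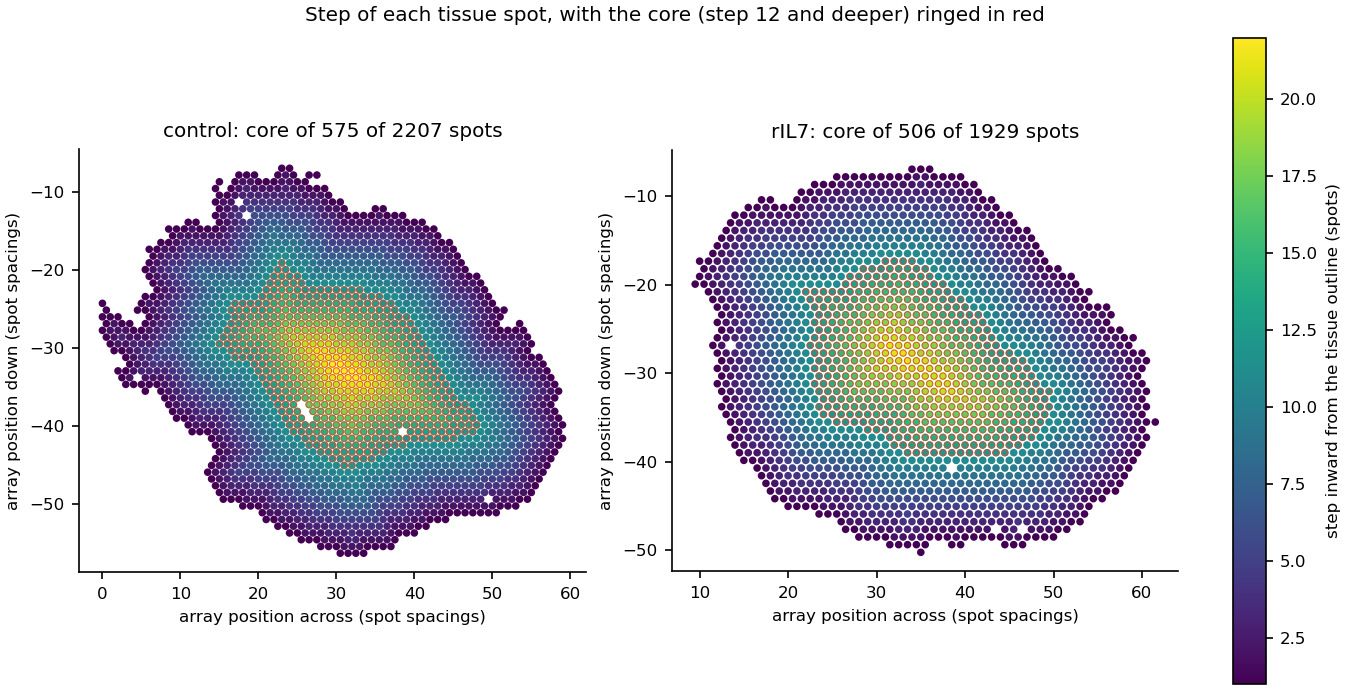
Each point is a tissue spot at its array position (both axes in spot spacings), coloured by its step from the outline, and red rings mark the core. The core held 575 spots of the control section and 506 spots of the rIL7 section, and the control core had a small hole beside 10 of its spots and 1 spot left out for its low number of genes.

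IL-7 is a cytokine made mainly by stromal cells, and T cells need its signal, through the IL-7 receptor and STAT5, to survive and to keep their numbers. The centre of a transplanted carcinoma is far from the vessels and immune cells that enter at its margin and is often short of oxygen. It can also hold macrophages. Macrophages can take on different programmes there, including arginase production, clearance of lipid and iron, release of chemokines, and responses to interferon-gamma from T and NK cells.

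Each spot of the Visium array captures polyadenylated RNA from an area larger than a cell, so a value below belongs to a region and its mixture of cell types. Fewer cells of a type and less RNA per cell cannot be told apart. Each captured molecule is counted once by its unique molecular identifier (UMI), and a level is the UMIs of a gene summed over the core per 1000000 UMIs of the core (CPM). The control core gave 4900578 UMIs and the rIL7 core 7965388, with medians of 8571 and 15552.5 UMIs per spot and 3695 and 5101.5 genes per spot. The rIL7 core was thus 1.81 times deeper per spot, against 1.17 times in steps 1 to 11, and counts per spot fell inward in the control section (10901 in steps 1 to 2, 6630 from step 18 on) while they climbed in the rIL7 section (11165.5 and 16927). The part that depth played in the results was not tested. Brackets after a fold hold its exact 95% interval, which covers counting error only. The spread inside a core is given by 4 quadrants, cut at the median array row and column of its spots. They are not replicates, and "apart" means that the quadrant values of the 2 cores did not overlap.

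The tumor label was checked on a pair of genes used as CT26 markers. With every spot thinned to 5000 UMIs, Baiap2l1 had a UMI in 98.7% of control and 97.8% of rIL7 core spots, and Rpl39l in 85.3% and 88.1%. Rpl39l stood at the same level in both cores (412 and 413 CPM), and Baiap2l1 was 0.736 times its control level (952 and 701 CPM), with quadrants apart. The control core also held skeletal muscle transcripts, 1000 UMIs of the 8-gene muscle list against 50 in the rIL7 core, at 204 and 6.28 CPM. At least 1 such UMI lay in 49.2% of control core spots and in 8.89% of rIL7 core spots.

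For 7574 genes the mean over the 2 cores was 20 CPM or more. Of these, 52 were at least 2-fold higher in the rIL7 core, or 0.687% of them, and 34 were at least 2-fold lower, or 0.449%. Quadrants were apart for 45 of the 52 and 28 of the 34. Among genes with quadrants apart, the higher ones were led by Arg1, Ccl8, Mmp12, Wfdc17 and Ccl6. The lower ones were led by the muscle genes Acta1, Myl4 and Mylpf, then Ankmy1 and enzymes of cholesterol synthesis. With TMM scaling, which aligns the bulk of the genes, the counts were 59 and 24. Without core spots that held 2 or more muscle UMIs they were 54 and 36. A smaller fold of 1.5 over all 12303 genes with at least 20 UMIs in the 2 cores was reached by 670 higher genes (5.45%) and 1007 lower genes (8.18%). Over the same 12303 genes, at any fold, quadrants were apart for 572 higher genes (4.65%) and 1001 lower genes (8.14%). The median gene sat at a log2 ratio of -0.07, so more genes stood below control than above it. Counts of list members above or below control are to be read against that.

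**Figure D2:**
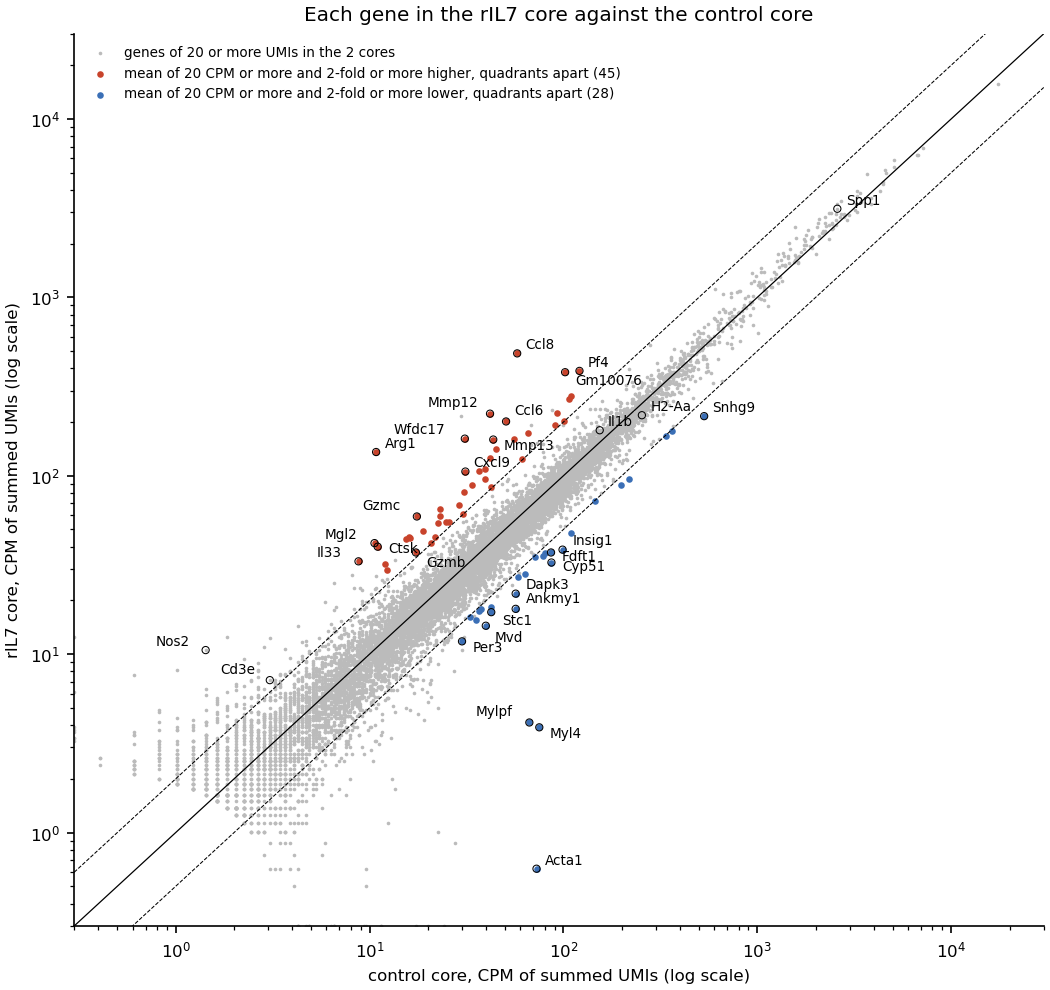
Each grey point is a gene with at least 20 UMIs in the 2 cores, at its CPM in the control core (horizontal) and the rIL7 core (vertical), both on log scales, with dashed lines at 2-fold. Red and blue points are the 45 higher and 28 lower genes of at least 20 CPM on average with quadrants apart, and circled names include genes near the diagonal such as Spp1, Il1b and H2-Aa.

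Arg1, the arginase that breaks arginine down to ornithine and urea (chr10:24915207-24927470, GRCm38), had 53 UMIs in the control core and 1082 in the rIL7 core, or 10.8 and 136 CPM. Its quadrants lay between 3.96 and 17.1 CPM in the control core and between 97.5 and 206 CPM in the rIL7 core. The ratio was 12.6 (9.53 to 16.9). With spots thinned to 5000 UMIs each, Arg1 had a UMI in 40.6% of rIL7 core spots and in 5.33% of control core spots. The 8 genes of arginine metabolism had a median log2 ratio of 0.76, with 4 of them at least 1.5-fold higher and 0 lower. Nos2, the inducible nitric oxide synthase that competes for the same amino acid, had 7 UMIs in the control core and 84 in the rIL7 core, a ratio of 7.38 (3.43 to 18.9). The arginine transporter Slc7a2 had 0 UMIs in the control core and 29 in the rIL7 core, and Ass1, which rebuilds arginine from citrulline, was 2.14-fold higher. Slc7a1, another arginine transporter, stood at 1.04 times its control level and the argininosuccinate lyase Asl at 0.765 times. Odc1, which turns ornithine into putrescine, was 1.28-fold higher with quadrants apart.

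Genes named for the resident type of macrophage were higher, while general macrophage genes were close to level. Among 11 measured genes of the resident-type list, 7 were at least 1.5-fold higher and 0 lower, with a median log2 ratio of 1.38. The sum of the list was 597 CPM in the control core and 1524 CPM in the rIL7 core. Much of that difference came from Pf4 and from Ccl8 (57.7 and 485 CPM), which is also in the CC chemokine list below. Pf4, a chemokine of platelets and of some tissue macrophages (chr5:90772435-90773383), had 593 and 3082 UMIs, or 121 and 387 CPM, a ratio of 3.20 (2.93 to 3.50). Its quadrants ran from 80.9 to 187 CPM in the control core and from 193 to 681 CPM in the rIL7 core, so they were apart by a small margin. The 10% of spots with the most Pf4 held 56.0% of its UMIs in the rIL7 core and 35.2% in the control core. The other genes with quadrants apart were the mannose receptor Mrc1 (1.64-fold), the folate receptor Folr2 (2.61-fold), the transglutaminase F13a1 (3.41-fold), the haemoglobin scavenger receptor Cd163 (2.81-fold), Cbr2 (2.84-fold), Ccl8 and the transcription factor Maf (1.25-fold). Mgl2, a lectin of alternatively activated macrophages that is not in that list (chr11:70130125-70137542), went from 10.6 to 41.9 CPM, a ratio of 3.95 (2.94 to 5.40). Of the general list of 12 macrophage genes, 0 reached 1.5-fold either way. Its median log2 ratio was 0.19. C1qa, C1qb and C1qc of the first complement component stood at 1.17, 1.06 and 1.11 times control. The receptor Csf1r stood at 0.843 times and Adgre1, which encodes F4/80, at 0.837 times. In both sections the sum of this general list was lower in the core than in steps 1 to 11. It was 4075 against 5209 CPM for control and 4960 against 6546 CPM for rIL7. The platelet list, which leaves Pf4 out and marks its other known source, had a median log2 ratio of 0.17 over 4 genes, and its sum was 34.3 and 31.6 CPM. Wfdc17, a small secreted protein of activated macrophages (chr11:83704056-83706269), went from 31.0 to 161 CPM, a ratio of 5.21 (4.40 to 6.20).

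Lipid and iron genes varied among themselves. In the list of lipid-handling macrophage genes, 2 of 10 were at least 1.5-fold higher and 2 lower. Spp1, the secreted phosphoprotein osteopontin (chr5:104435111-104441053), was 1.21-fold higher. The fatty acid binding protein Fabp5 was 2.82-fold higher and Lpl, the lipoprotein lipase, 2.85-fold higher, both with overlapping quadrants. Gpnmb, a lysosomal glycoprotein, was at 0.513 times its control level with quadrants apart, and the scavenger receptor Cd36 was at 0.577 times. In the heme and iron list, 3 of 9 genes were at least 1.5-fold higher and 1 lower. Hmox1, the heme oxygenase, went from 146 to 1725 UMIs, a ratio of 7.27 (6.14 to 8.67), and the iron exporter Slc40a1 from 9 to 100 UMIs. The Hmox1 quadrants overlapped, with a range of 7.92 to 79.0 CPM in the control core and 29.0 to 430 CPM in the rIL7 core. The transferrin receptor Tfrc, which takes iron up, stood at 0.617 times control with quadrants apart.

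Chemokines of the CC family were higher in the rIL7 core for 9 of 9 measured genes and at least 1.5-fold higher for 7 of them, with a median log2 ratio of 1.33 and sums of 1189 and 2440 CPM. Ccl8, a monocyte-attracting chemokine (chr11:82115185-82116799), had 283 and 3864 UMIs, or 57.7 and 485 CPM, a ratio of 8.40 (7.44 to 9.51). Its quadrants ran from 34.4 to 74.9 CPM in the control core and from 313 to 763 CPM in the rIL7 core. A Ccl8 UMI was found in 21.5% of thinned control spots and 81.4% of thinned rIL7 spots. Ccl6 (chr11:83587886-83593087) was 3.98-fold higher (3.48 to 4.57), Ccl12 2.57-fold, Ccl7 2.51-fold and the eosinophil attractant Ccl24 4.13-fold, from 7 to 47 UMIs, all with quadrants apart. Ccl2, the chief ligand of the monocyte receptor CCR2, was 1.37-fold higher, with overlapping quadrants. Ccl7, Ccl8 and Ccl12 are close relatives in sequence, and reads that fit more than 1 of them could be lost or misplaced by the counting. All 5 neutrophil-attracting ligands of CXCR2 were at least 1.5-fold higher, from 1.54-fold for Cxcl2 to 2.57-fold for Cxcl5, but none had quadrants apart. Their sum ranged from 64.7 to 682 CPM over the control quadrants and from 277 to 716 CPM over the rIL7 quadrants.

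Matrix-degrading enzymes and bone-resorption type proteases were higher in part. Of 16 genes of matrix proteases and their inhibitors, 7 were at least 1.5-fold higher and 1 lower, and the sum was 1825 CPM in the control core and 2822 CPM in the rIL7 core, with quadrants apart. Mmp12, the elastase of macrophages (chr9:7344397-7360461), went from 41.8 to 223 CPM, a ratio of 5.33 (4.61 to 6.19). Its quadrants reached from 18.9 to 119 CPM in the control core and from 137 to 278 CPM in the rIL7 core. Mmp13, a collagenase (chr9:7272514-7283333), went from 43.5 to 160 CPM, a ratio of 3.67 (3.17 to 4.26), and the gelatinase Mmp9 was 2.99-fold higher. Mmp3, Mmp10 and Adam8 were 1.93-fold, 1.56-fold and 1.81-fold higher, and quadrants were apart for Mmp3 and Mmp10. Mmp2, a gelatinase of fibroblasts, stood at 0.659 times control and Mmp19 at 0.940 times. The cysteine protease Ctsk (chr3:95499210-95509387) went from 11.0 to 40.0 CPM, a ratio of 3.63 (2.72 to 4.94), and the acid phosphatase Acp5 was 2.75-fold higher. Of the 13 genes of the lysosome list, which holds other proteases of that compartment, 0 reached 1.5-fold either way and the median log2 ratio was 0.09.

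**Figure D3:**
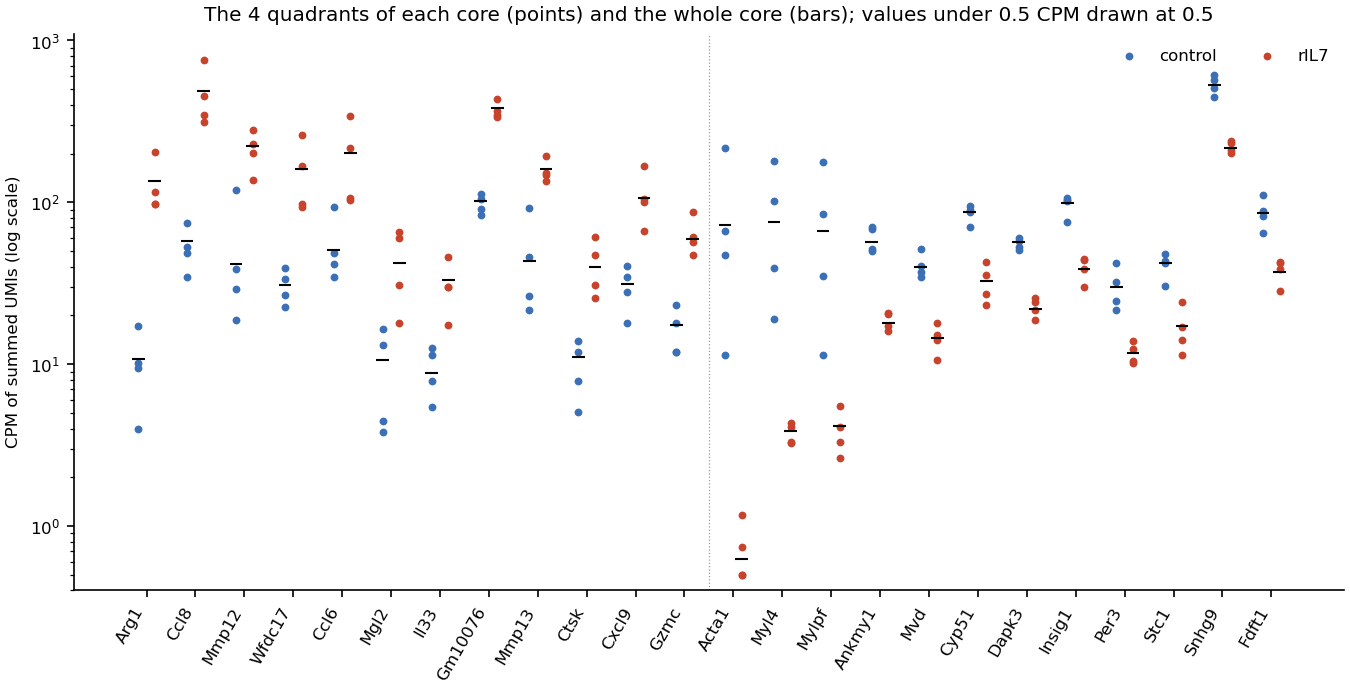
For the 12 genes with the largest ratios (left) and the 12 with the smallest (right), points are the CPM of the 4 quadrants of each core and bars the whole core, on a log scale. The control and rIL7 points do not overlap for any of these genes, which the naming rule required, and the control quadrants of Acta1, Myl4 and Mylpf are the most spread, from 11.5 to 215 CPM for Acta1.

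T cell, NK cell and killing genes were at low levels and higher in the rIL7 core. Of 13 measured T cell genes, 10 were at least 1.5-fold higher and 0 lower, with a median log2 ratio of 1.33. Cd3e, a chain of the T cell receptor complex (chr9:44998735-45009663), had 15 UMIs in the control core and 57 in the rIL7 core, or 3.06 and 7.16 CPM, a ratio of 2.34 (1.31 to 4.45). The receptor chain genes Trbc1 and Trac were 2.78-fold and 2.51-fold higher and the kinase gene Lck 2.60-fold higher, all with quadrants apart. Cd8a had 34 and 89 UMIs, 1.61-fold, with overlapping quadrants, and Cd4 had 7 and 13 UMIs. Trbc2, with 484 of the list's 752 UMIs in the control core, stood at 0.944 times control, and for this reason the summed list differed less, 153 and 220 CPM. All 10 measured cytotoxicity genes were at least 1.5-fold higher, with a median log2 ratio of 1.11 and sums of 199 and 476 CPM. Gzmb, a granule protease that triggers cell death (chr14:56258836-56262334), went from 17.3 to 37.2 CPM, a ratio of 2.14 (1.68 to 2.76), and Gzmc (chr14:56231397-56241647) from 17.5 to 59.1 CPM, a ratio of 3.37 (2.67 to 4.29). Gzma was 2.02-fold and perforin, Prf1, 1.55-fold higher, and the interferon-gamma gene Ifng had 4 UMIs in the control core and 33 in the rIL7 core. Ccl5, a chemokine of activated T and NK cells, was 2.67-fold higher with overlapping quadrants, 53.5 to 131 CPM in the control core and 88.5 to 458 CPM in the rIL7 core. Of the 7 NK cell genes, 6 were at least 1.5-fold higher and 0 lower, among them the activating receptor gene Ncr1 at 2.13-fold and Klre1 from 4 to 39 UMIs.

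Genes of exhausted and regulatory T cells rested on few counts. Of 5 measured genes of the exhaustion list, 3 were at least 1.5-fold higher, with 6 and 26 UMIs for Pdcd1, 5 and 20 for Lag3 and 8 and 43 for Ctla4, while Havcr2 and Entpd1 stood at 0.954 and 0.920 times control. The median log2 ratio of that list was 1.30, and -0.07 when only its genes with at least 50 UMIs were used. Foxp3, the master regulator of regulatory T cells, had 7 and 14 UMIs. B cell genes were close to absent, with 13 and 15 UMIs for the whole list and 0 genes measured. Of 5 measured immunoglobulin genes, 4 were higher, led by Igkc with 1 UMI in the control core and 100 in the rIL7 core, and Ighm was lower, with 111 and 70 UMIs. Immunoglobulin genes resemble each other closely, so their split between genes is uncertain.

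For the pathway of the injected cytokine itself, the summed level was similar in the 2 cores, but some of its genes were higher in the rIL7 core. Il7 and Il7r had too few UMIs to be called level. Il7 (chr3:7572028-7613760) had 3 UMIs in the control core and 8 in the rIL7 core, at the limit of what these counts can show, and Il7r, the receptor chain (chr15:9506159-9529941), had 11 and 27 UMIs, a ratio of 1.51 (0.725 to 3.37). Of 11 measured genes of the IL-7 axis, 3 were at least 1.5-fold higher and 0 lower, with a median log2 ratio of 0.25 and sums of 696 and 707 CPM. Among its signalling genes, Stat5a and Stat5b both stood at 1.19 times control, and Cish, a feedback inhibitor that STAT5 induces, had 26 and 76 UMIs, 1.80-fold. Mcl1, a survival gene, stood at 0.897 times control.

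Interferon-inducible GTPase genes were higher in the rIL7 core, and MHC class II genes were not. Which interferon lay behind the difference was not tested. Of 14 interferon-inducible GTPases, which attack vacuoles and membranes of intracellular pathogens, 13 were at least 1.5-fold higher and 0 lower, and 10 had quadrants apart. Their median log2 ratio was 0.98 and their sums were 411 and 909 CPM, with 388 to 499 CPM over the control quadrants and 672 to 1163 CPM over the rIL7 quadrants. Examples were Iigp1 at 2.89-fold, Gbp6 at 2.86-fold, Gbp4 at 2.67-fold and Gbp2 at 2.63-fold, and Tgtp2 at 1.42-fold was the gene under 1.5. Several of these GTPases are near-identical copies, so their shares are uncertain. Cxcl9, which draws T cells through CXCR3 (chr5:92321331-92328079), went from 31.2 to 106 CPM, a ratio of 3.38 (2.84 to 4.04), and Cxcl10 was 2.13-fold higher. The checkpoint ligand gene Cd274, which encodes PD-L1, had 58 and 202 UMIs, 2.14-fold, with quadrants apart. MHC class I genes were above control for 12 of 12 genes by small amounts, with a median log2 ratio of 0.29 and 2 genes at least 1.5-fold higher.

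Of 8 measured MHC class II genes, 0 were at least 1.5-fold higher and 1 was lower, the transactivator Ciita at 0.508 times control. Their median log2 ratio was -0.13, and 0.41 when a quadrant of each core was left out, so the list has no firm direction. H2-Aa (chr17:34282744-34287823) had 254 CPM in the control core and 218 CPM in the rIL7 core, a ratio of 0.861, and H2-Eb1 (chr17:34305867-34316674) had a ratio of 0.984. The quadrants of H2-Aa spanned 72.2 to 402 CPM in the control core and 168 to 292 CPM in the rIL7 core, so the difference was well inside the spread within a section. Genes of the type I interferon response were at least 1.5-fold higher for 6 of 13, with a median log2 ratio of 0.54 and sums of 450 and 651 CPM whose quadrants were apart. Rsad2, an antiviral enzyme, was 1.63-fold and Oas1a 1.80-fold higher, while Usp18, which dampens the response, stood at 0.883 times. Among complement genes, 5 of 11 were at least 1.5-fold higher, with C3 at 3.15-fold, C1ra at 2.67-fold and C1s1 at 2.43-fold, and the alarmin gene Il33 (chr19:29925113-29960718) went from 8.77 to 33.1 CPM, a ratio of 3.78 (2.73 to 5.34). Of the pro-inflammatory list, 5 of 9 genes were at least 1.5-fold higher, but Il1b (chr2:129364569-129371164) stood at 1.17 times control and Tnf, with 40 and 46 UMIs, at 0.708 times. That list had a median log2 ratio of 0.65 and sums of 371 and 622 CPM with overlapping quadrants. Of 6 measured genes of the anti-inflammatory list, 4 were at least 1.5-fold higher and 1 lower, with a median log2 ratio of 0.81. The sums of the anti-inflammatory list were 283 and 501 CPM, with quadrants apart.

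**Figure D4:**
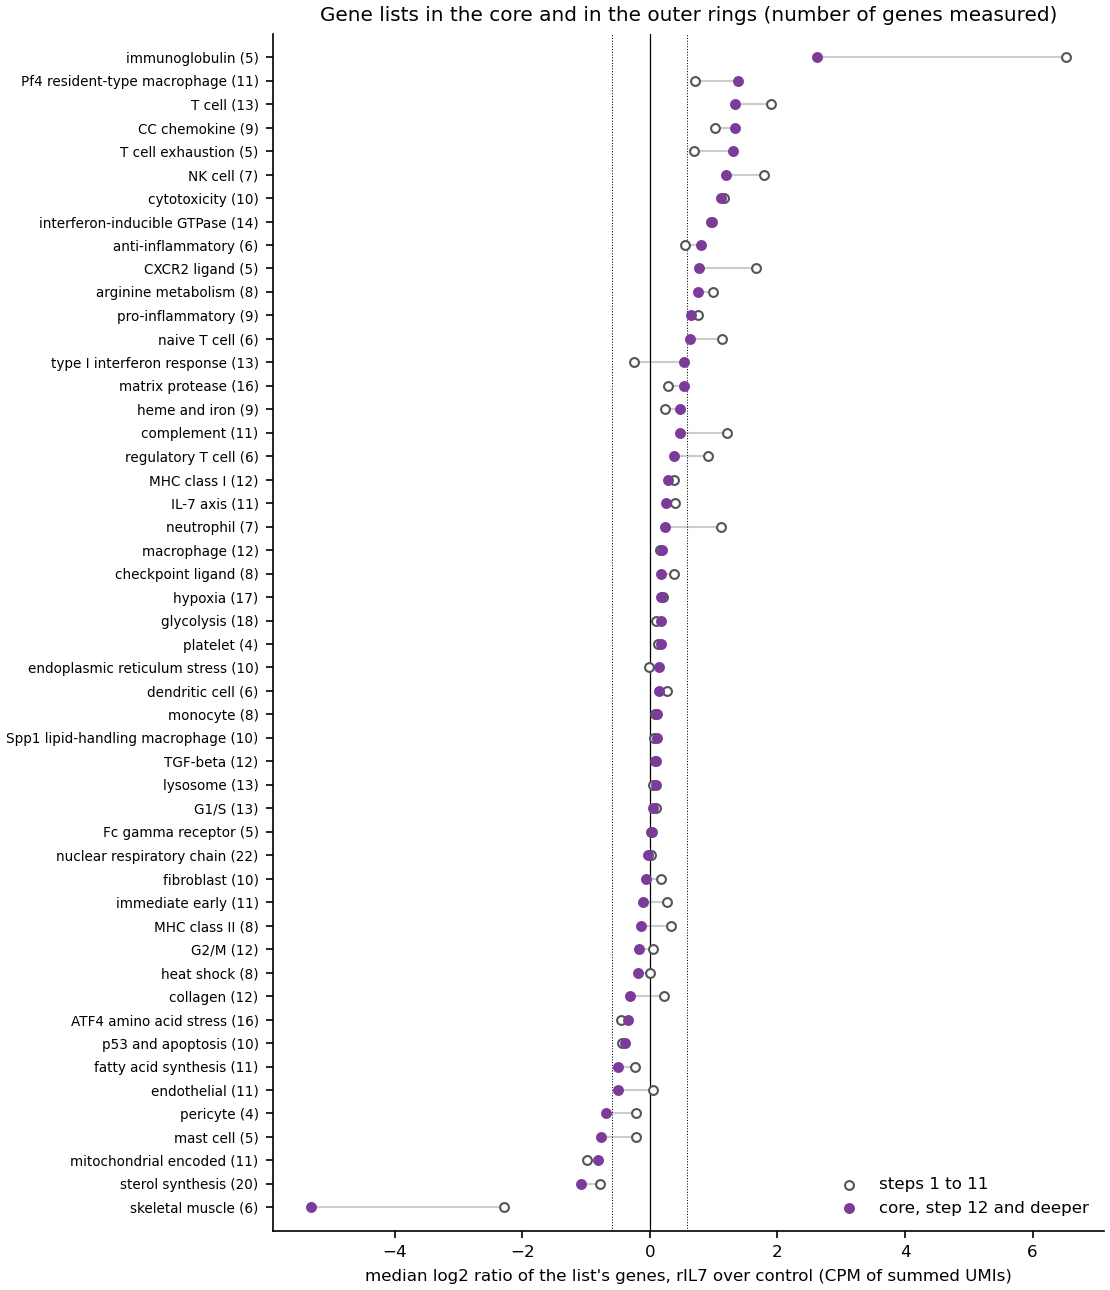
Each row is a gene list with at least 3 measured genes (number in brackets), with the median log2 ratio of rIL7 over control in the core as a filled point and in steps 1 to 11 as an open point, and dotted lines at 1.5-fold. The resident-type macrophage list sits at 1.38 in the core and 0.71 outside it, the immunoglobulin list at 2.62 and 6.52, and the sterol synthesis list at -1.08 and -0.78.

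Cholesterol synthesis genes were lower in the rIL7 core along the length of the pathway. Of 20 measured genes, 20 stood below control, 18 were at least 1.5-fold lower and 18 had quadrants apart, with a median log2 ratio of -1.08. Their sum was 1512 CPM in the control core, with quadrants from 1367 to 1562 CPM, and 796 CPM in the rIL7 core, with quadrants from 664 to 923 CPM. Near its start, the synthase gene Hmgcs1 stood at 0.526 times control. Mvd, the decarboxylase of the mevalonate steps (chr8:122433596-122443422), went from 39.8 to 14.4 CPM, or 2.76-fold lower (2.18 to 3.50). Fdft1, which makes squalene (chr14:63145150-63181687), was 2.32-fold lower (2.00 to 2.70), Sqle 2.30-fold and Cyp51, the lanosterol demethylase (chr5:4080674-4104697), 2.66-fold lower (2.27 to 3.11). Insig1, which holds the controlling factor SREBP back when sterols are plentiful and is itself its target (chr5:28071412-28078662), went from 485 to 307 UMIs, 2.57-fold lower (2.22 to 2.97). Srebf2, the gene of the controlling factor, stood at 0.828 times control with quadrants apart. The exporter of cholesterol Abca1 was 2.37-fold higher. In the related fatty acid list, 3 of 11 genes were at least 1.5-fold lower and 0 higher, with a median log2 ratio of -0.49. They were Fads2 at 0.445, Fads1 at 0.601 and Elovl6 at 0.615 times control, and the fatty acid synthase Fasn stood at 0.678 times.

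Other genes were lower without belonging to 1 group. Snhg9, a small nucleolar RNA host gene (chr17:24719531-24719965), had 2606 UMIs in the control core and 1719 in the rIL7 core, or 532 and 216 CPM, 2.46-fold lower (2.32 to 2.62), and its quadrants ran from 449 to 615 CPM and from 202 to 238 CPM. Ankmy1 (chr1:92859840-92902987) went from 278 to 143 UMIs, 3.16-fold lower (2.57 to 3.89), and the kinase gene Dapk3 (chr10:81182987-81193197) from 56.7 to 21.8 CPM, 2.60-fold lower (2.14 to 3.16). Per3 of the circadian clock (chr4:150997018-151044707) was 2.54-fold lower (1.95 to 3.33), and Stc1, a glycoprotein hormone that low oxygen induces (chr14:69029289-69041401), was 2.47-fold lower (1.98 to 3.08). Pthlh, the parathyroid hormone-like hormone secreted by carcinomas, went from 365 to 178 CPM. Mitochondrially encoded genes were below control for 11 of 11 and at least 1.5-fold lower for 8, with a median log2 ratio of -0.82. Their sums were 1637 and 1199.6 CPM, with quadrants that overlapped by a small margin. The difference was not limited to the core, as their median log2 ratio was -0.98 in steps 1 to 11. Respiratory chain genes of the nucleus were level, with 0 of 22 past 1.5-fold and a median log2 ratio of -0.03. The mitochondrial genes were 0.164% of the control core's UMIs and 0.120% of the rIL7 core's. Gm10076, a gene model known by number (chr14:105681826-105682219), moved the other way, from 102 to 381 CPM, 3.73-fold higher (3.39 to 4.11), and counts of such models can include reads of near-identical copies.

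Oxygen, growth and stroma genes differed little or in part. The hypoxia list had 5 of 17 genes at least 1.5-fold higher and 2 lower, with a median log2 ratio of 0.17. Its sum was 1544 CPM in the control core, with quadrants from 1109 to 2732 CPM, and 1891 CPM in the rIL7 core, with quadrants from 1349 to 2204 CPM. Angptl4 and Car9 were 1.61-fold and 1.51-fold higher, Vegfa stood at 0.993 times control, and Stc1 and Egln3 were the lower ones. Glycolysis genes had 1 of 18 past 1.5-fold, the lactate exporter Slc16a3 at 1.66-fold. Cell cycle genes showed 0 of 13 (G1/S) and 0 of 12 (G2/M) past 1.5-fold, and Mki67 stood at 0.938 times control. Of 12 collagen genes, 4 were at least 1.5-fold lower and 0 higher, with Col6a3 at 0.441 and Col1a1 at 0.642 times control and quadrants apart for both. Of 11 endothelial genes, 5 were at least 1.5-fold lower and 1, Flt1, higher, with a median log2 ratio of -0.50 and sums of 147 and 137 CPM whose quadrants overlapped. Of 16 genes of the ATF4 amino acid response, 15 were below control and 5 at least 1.5-fold lower, against 8.18% of all genes for the latter. Their median log2 ratio was -0.34, where the median of all genes was already at -0.07. The 10 genes of the p53 response had a median log2 ratio of -0.39, with Ccng1 at 0.599 times.

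Among the genes past the size rule, the 3 furthest from a ratio of 1 were muscle genes. Acta1, the actin of skeletal muscle fibres (chr8:123891758-123894775), had 356 UMIs in the control core and 5 in the rIL7 core, 116-fold lower (49.1 to 359). Mylpf (chr7:127208848-127214288) and Myl4 (chr11:104546017-104587215), light chains of myosin, were 16.1-fold and 19.3-fold lower. All 6 measured genes of the muscle list were lower, with a median log2 ratio of -5.31 in which a gene at 0 UMIs counts as 3. The sum of the list was 29.3 to 591 CPM over the control quadrants and 3.92 to 8.23 CPM over the rIL7 quadrants, and it climbed inward in the control section, from 20.6 CPM in steps 1 to 2 to 237 CPM from step 18 on. The climb began outside the core, with 99.3 CPM in steps 9 to 11 of the control section. Des, which is also a muscle gene, went from 136 to 7 UMIs and accounts for 1 of the 3 lower genes among the 4 measured of the pericyte list. Markers of other tissues at the margin were scarce or level in the core. The keratinocyte and adipocyte lists had 1 measured gene each, at log2 ratios of -0.10 and -0.25, and the red blood cell list had sums of 2.65 and 2.76 CPM.

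The same comparison was made in the outer rings. In steps 1 to 11, with 1632 control and 1423 rIL7 spots, 70 genes were at least 2-fold higher and 13 lower of 7626 with the same mean level. Of these, 36 were higher in both zones, 69.2% of the core's and 51.4% of the outer rings', and 6 were lower in both, 17.6% and 46.2%. The log2 ratio was larger in the core for 36 of the core's 52 higher genes and more negative in the core for 33 of its 34 lower genes. Of the 34 lower genes, 2 had an outer log2 ratio over 0, so most were below control in both zones and missed the 2-fold limit outside the core. Since the genes were chosen by their core ratios, a larger ratio there is partly fixed by the choice. Arg1 had a log2 ratio of 3.65 in the core and 2.30 outside it, Pf4 1.68 and 0.71, Mmp13 1.88 and 0.61, and Mmp12 2.41 and 1.46. For others the outer ratio was larger, as for C3 with 1.65 in the core and 2.47 outside, Il33 with 1.92 and 2.28, and Cd3e with 1.23 and 2.11. Cxcl9 was close in both zones, with 1.76 in the core and 1.64 outside. Cd8a stood at 0.69 in the core and 1.81 outside, and the T cell list at 1.33 and 1.90. MHC class II had medians of -0.13 in the core and 0.33 outside, and the type I interferon list 0.54 and -0.24.

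The step bands show where these differences sat. Arg1 stayed between 10.0 and 13.8 CPM in each band of the control section. In the rIL7 section it was 56.6 CPM in steps 1 to 2, 46.0 in steps 3 to 5, 64.5 in steps 6 to 8 and 91.0 in steps 9 to 11. It was then 152 CPM in steps 12 to 14, 134 in steps 15 to 17 and 105 from step 18 on. Pf4 had 2 high zones in the rIL7 section, 389 CPM in steps 1 to 2 and 502 CPM in steps 12 to 14, with 172 CPM between them in steps 3 to 5 and 198 CPM from step 18 on. In the control section Pf4 went from 153 CPM at the outline to 86.8 CPM from step 18 on. Mmp12 in the rIL7 section went from 91.5 CPM in steps 1 to 2 to 273 CPM in steps 15 to 17. Ccl8 was at 1862 CPM in steps 1 to 2 of the rIL7 section and between 383 and 548 CPM over the core bands. H2-Aa fell inward from 1137 CPM in steps 1 to 2 to 194 CPM in steps 12 to 14 of the rIL7 section and was 294 CPM from step 18 on, against 404 to 196 CPM in the control section. The hypoxia list crossed over in the deepest band, with 2167 CPM for control and 1659 CPM for rIL7 from step 18 on, after 1325 and 1865 CPM in steps 12 to 14. The sterol synthesis list was higher in the control section in each band, 1195 against 751 CPM in steps 1 to 2 and 1551 against 752 CPM in steps 15 to 17.

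**Figure D5:**
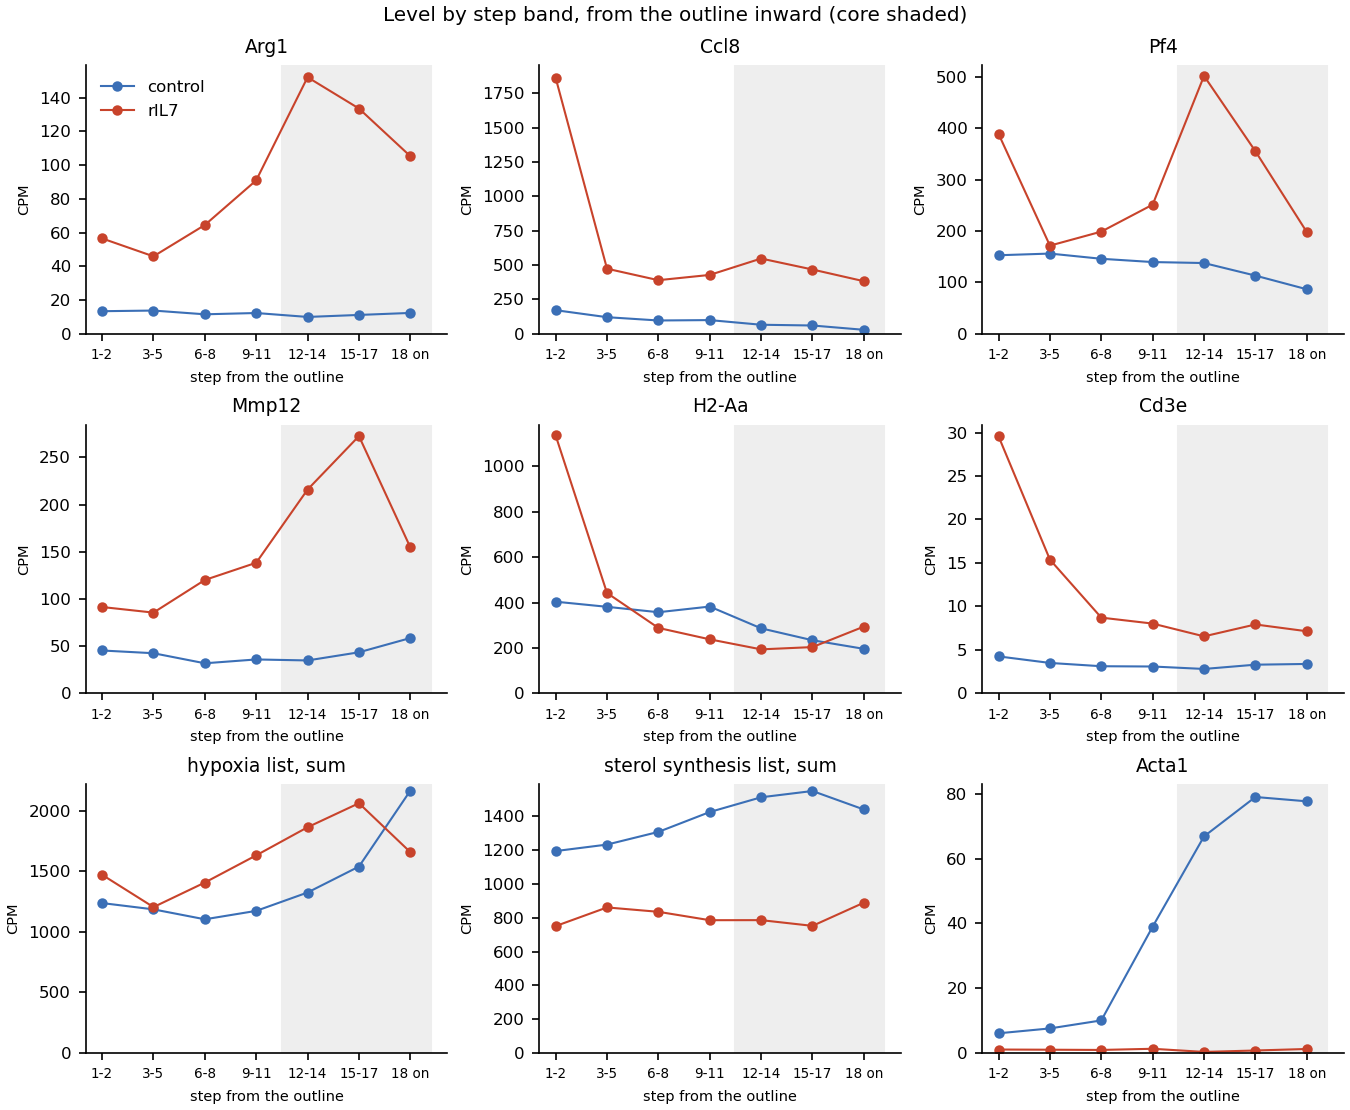
CPM by step band from the outline inward (horizontal) for 6 genes, the summed hypoxia and sterol synthesis lists and Acta1 in the control (blue) and rIL7 (red) sections, with the core shaded and a linear axis from 0. Arg1, Pf4 and Mmp12 of the rIL7 section peak inside the core, at 152, 502 and 273 CPM, while Ccl8, H2-Aa and Cd3e are highest at the outline.

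Within the cores, spots thinned to 5000 UMIs were compared, 525 in the control core and 505 in the rIL7 core, after 50 and 1 shallower spots were left out. Neighbouring spots are not independent and share their library, so Spearman's rho is a description. Pairs were kept where both measures had a mean of at least 1 UMI per thinned spot in both cores, a minimum set after the values were seen, which leaves out Arg1, Pf4, Ccl8, Mmp12, Mmp13, Cxcl9 and the T cell and cytotoxicity lists. Of the 28 pairs kept, 6 had a rho of at least 0.3 in size in 1 core or both. The summed macrophage and MHC class II lists went together over the control core (rho 0.58) and hardly at all over the rIL7 core (0.06). Spp1 went with MHC class II at 0.37 in the control core and 0.15 in the rIL7 core. The hypoxia list ran against the macrophage list in the control core (-0.42) and less so in the rIL7 core (-0.12), and against MHC class II in the control core (-0.30) but not in the rIL7 core (0.01). Among the pairs kept, a larger value in the rIL7 core was that of macrophage with CC chemokine genes (0.31, against 0.09 in the control core). MHC class II with the interferon-inducible GTPases also had 0.31, against 0.17. Some pairs left out had larger values. Mmp12 went with the hypoxia list at 0.36 in the control core and 0.40 in the rIL7 core. Ccl8 went with the macrophage list at 0.12 and 0.35. Mmp12 and Ccl8 had means of 0.215 and 0.265 UMIs per thinned control spot.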

How the data were processed

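Spatial expression was measured on the Visium platform in 2 tumor sections. The authors deposited UMI counts for 32285 features in each spot, not normalized, with spot positions and an in-tissue flag. The submitters' notes name Space Ranger 1.1.0 and mm10. Replicates were not pooled, since each group is 1 section.

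From these counts, Python 3.11.15 (numpy 2.4.6, scipy 1.17.1, pandas 2.3.3) found the largest connected piece, the steps and the core, summed UMIs per gene and computed CPM ratios. Intervals are exact binomial (Clopper-Pearson) at 95% and cover counting error only. The size rule asked for a mean of at least 20 CPM and a ratio of at least 2 or at most 0.5. Lists (56, with 582 members) were summarised by the median log2 ratio over genes with at least 20 UMIs, a core at 0 UMIs counting as 3. For a symbol shared by several features, the feature with more UMIs was used. Named genes were the 12 largest and 12 smallest ratios past the size rule with quadrants apart, a panel of 14 genes and members of reported lists. Other genes past the size rule were named after their values were seen (Abca1, Acp5, Pthlh). The core, lists and panel were chosen with earlier results of these data known. Scaling alternatives used edgeR 4.0.16 (TMM) and DESeq2 1.42.0 (median of ratios) in R 4.3.3. Scripts were checked on simulated counts. Coordinates are from RefSeq on GRCm38, matched by symbol for 11971 of 12303 genes. The H&E images were not used here.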

Additional observations from a re-analysis of the deposited data

Results flagged for a closer look

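For a few measures the core differed from steps 1 to 11 in opposite directions in the 2 sections. With 1 section per group these differences were not tested. The median UMIs per spot of the core were 0.83 times those of the outer rings for control and 1.3 times for rIL7. The resident-type macrophage list had a median log2 ratio of core over outer rings of -0.19 for control and 0.19 for rIL7, and the anti-inflammatory list, which shares Mrc1 and Cd163 with it, had -0.1 and 0.25.

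Among named genes, those whose counting intervals lay on opposite sides of 1 in the 2 sections were picked out. Mmp13, Wfdc17, Gm10076 and Fdft1 had been named for their core ratios, a choice that by itself favours such opposite directions. Pf4 in the core was 0.81 times its outer level for control and 1.58 times for rIL7. Mmp13 stood at 0.65 and 1.56 times, Wfdc17 at 0.61 and 1.29 times, Gm10076 at 0.65 and 1.11 times, and the tumor marker Rpl39l at 0.94 and 1.13 times. Fdft1 ran the other way, at 1.25 and 0.87 times.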

How the results depend on the processing

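No paired analysis was possible because each group is 1 section and no test was run. With the spot filter removed or raised to 1000 genes, with the array border not counted as outline, or with the steps that both sections reach, every named gene and list median stayed within its counting interval. The settings below moved values further, and the cause was not tested. Changing the minimum mean to 5 CPM gave 113 higher and 136 lower genes, and a core from step 14 gave 54 lower genes. Weighting spots equally left 3 list medians at least 1.5-fold lower, against 5.

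For the T cell list the median log2 ratio (1.33) was 0.92 from step 10, 1.49 with equal spots, and 1.05 to 1.71 when a quadrant was left out. Cytotoxicity (1.11) was 1.37 from step 14, 1.26 with equal spots, 1.24 with thinned spots, 1.34 with holes as outline, and 0.93 to 1.62 without a quadrant. The general macrophage list (0.19) was 0.27 with TMM or median-of-ratios scaling, 0.21 with reduced totals, 0.07 from step 10, 0.28 from step 14, 0.23 with equal spots, 0.22 without muscle spots (added after seeing the data), and -0.12 to 0.42 without a quadrant. The resident-type list (1.38) was 1.47 with either scaling, 1.16 from step 10, 1.26 from step 14, 1.30 with equal spots, 1.29 thinned, 1.25 with holes, 1.18 without muscle spots, and 1.08 to 1.43 without a quadrant. MHC class II (-0.13) was -0.04 with either scaling, -0.25 from step 10, 0.04 from step 14, 0.04 with equal spots, -0.04 thinned, -0.01 with holes, and -0.29 to 0.41 without a quadrant. CC chemokines (1.33) were at 1.42 with either scaling, 1.13 from step 10, 1.22 from step 14, 1.28 with equal spots, 1.39 thinned, 1.07 with holes, 1.24 without muscle spots, and 1.16 to 1.53 without a quadrant. The GTPase list (0.98) was 1.07 with either scaling, 1.23 from step 14, 1.09 thinned, 1.1 with holes, and 0.64 to 1.17 without a quadrant. Hypoxia (0.17) was 0.26 with either scaling, 0.28 from step 10, 0.10 from step 14, -0.05 with equal spots, 0.13 thinned, 0.03 with holes, and -0.06 to 0.33 without a quadrant. Sterol synthesis (-1.08) was -0.99 with either scaling, -1.15 from step 14, and -1.19 to -0.98 without a quadrant. Leaving out a quadrant gave 51 to 64 higher and 37 to 44 lower genes.

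Among the values above, the sign turned for MHC class II, hypoxia and the general macrophage list where shown. It also turned for the exhaustion list (1.30), at -0.07 with genes of at least 50 UMIs, and for Il7, at -0.42 from step 14 and -0.46 to 0.71 without a quadrant. Il7 had 11 UMIs in all, and genes with counts this low, such as Il7r and Cd4, limit what can be said of the IL-7 axis in the core.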

Other observations

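A pair of further lists was written after the values of the core were seen and is given as a description only. Of 12 genes of the circadian clock and its output, 5 were at least 1.5-fold lower in the rIL7 core and 0 higher, with a median log2 ratio of -0.48 in the core and -0.38 in steps 1 to 11. Per3, Nr1d1, Dbp and Tef, which are driven by the same arm of the clock, stood at 0.393, 0.486, 0.529 and 0.544 times control with quadrants apart. The clock genes Arntl and Clock stood at 1.08 and 1.09 times. The hours of tumor collection are not given in the sources used here.

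The muscle signal of the control core included genes of young and regenerating fibres. Of 7 measured genes of a list of developing and contractile muscle, 7 were at least 1.5-fold lower in the rIL7 core. Myl4, of embryonic and atrial muscle, had 368 and 31 UMIs, the embryonic myosin Myh3 had 8 and 0, the perinatal myosin Myh8 had 21 and 0, and the muscle master regulator Myog had 19 and 0. The list summed to 164 CPM in the control core, with quadrants from 38.2 to 449 CPM, and 6.53 CPM in the rIL7 core. The histology of these spots was not examined here.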
